A study of Mus musculus with 5 samples.

Results

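The probes for 7 enzymes and regulators of DNA methylation were followed in 5 mouse embryonic stem cell (ESC) lines: the DNA methyltransferase genes Dnmt1, Dnmt3a, Dnmt3b and Dnmt3l, their recruiting factor Uhrf1, and the oxidases Tet1 and Tet2. Members were taken by gene name or by a description that names one of these enzymes, which gave 12 of the 41174 probes on the array, whose probes carry the names of 19505 genes. Of these, 11 belong to the 7 genes and 1 belongs to LOC668932, a predicted locus described as resembling Dnmt3b. The array lists Tet1 as Cxxc6 and Tet2 under a RIKEN clone name, and Tet2 was recognised through its RefSeq accession. The probes for Dmap1, a partner protein whose description mentions Dnmt1, were not counted as members.

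Each ESC line was measured on 1 one-colour array. RF8, the wild-type parental line, is of 129sv origin and labelled male, whereas the other 4 lines came from blastocysts of C57BL6/129sv origin. Of those, #620-2 is wild type and labelled female, #620-6 is ECAT11EGFP/EGFP and labelled female, and #757-1 and #757-2 are ECAT11EGFP/EGFP and labelled male. In the ECAT11EGFP/EGFP lines an EGFP and puromycin-resistance cassette replaces the coding region of both copies of ECAT11, a gene expressed in ESCs, and the wild-type lines carry no modification. Per the labels all lines were cultured on gelatin with serum and LIF, the cytokine that keeps mouse ESCs undifferentiated. Every line is a single clone, so the spread within a group is a spread between clones. Both female-labelled lines are #620 lines, so a difference between the sex labels and a difference between the #620 lines and the other 3 lines cannot be told apart.

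Dnmt3a and Dnmt3b add methyl groups to unmethylated cytosines, and Dnmt3l, which lacks catalytic activity, stimulates both. Dnmt1 copies methylation to the new strand after replication, and Uhrf1 brings it to the half-methylated sites left by replication. Tet1 and Tet2 oxidise 5-methylcytosine, the first step of its active removal. ESCs express all of these genes, and mouse ESC lines with a pair of X chromosomes have been described as carrying less DNA methylation than XY lines. Methylation itself was not measured here.

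The sequences that follow are those of probes for the genes that differed most between the lines. The LOC668932 probe, well above background on 1 array only, is added. All are shown so that it is clear which stretch of each transcript was read. The Dnmt3a probe is printed whole because its positions on the genome span 782 bases, more than its 60 bases, so it crosses an intron. Of the others the first 30 of 60 bases are given, 5′ to 3′. Capitals mark the longest run that the printed stretch shares, on either strand, with a probe of another member, and no such run was longer than 10 bases in any whole member probe.
Dnmt3a probe 1: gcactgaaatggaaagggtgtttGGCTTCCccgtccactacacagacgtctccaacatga
Dnmt3b: gaaaaccttctgGAGATGTtaaaagctttt
Dnmt3l: aTGAAAGTctttcctagaaccagggcagat
Tet2 probe 1: ggagaCCTTTGTAATttaccatcagtcaca
Tet2 probe 2: ttatcaaagtagCTACAGAAAgcttaagtg
LOC668932: ccgttaagcatgaagGCCAAAtcaaatatg

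The files place these probes on mm7. Dnmt3a probe 1 lies at chr12:3825243-3826024 on the plus strand, Dnmt3b at chr2:153428204-153428263 on the plus strand and Dnmt3l at chr10:77717971-77718030 on the plus strand. The Tet2 probes lie on the minus strand, probe 1 at chr3:133261322-133261381 and probe 2 at chr3:133263123-133263182. LOC668932 is placed at chr2:153460147-153460206 on the plus strand. Dnmt1 (chr9:20784085-20784453, minus strand), both Uhrf1 probes (chr17:54481483-54481542 and chr17:54481380-54481439, plus strand) and Tet1 (chr10:62332082-62332141, minus strand) complete the set with Dnmt3a probe 2 (chr12:3826602-3826661) and probe 3 (chr12:3830965-3831024), both on the plus strand. Whether a probe reads coding or untranslated exon was not determined here.

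Signals are log2 of the background-corrected intensity relative to the 75th percentile of the array, so 0 is that percentile and 1 unit is a 2-fold difference. Probes of a gene are numbered from the brightest, and levels are compared between lines, never between probes. The 11 probes of the 7 genes were well above background on all 5 arrays. The LOC668932 probe was well above background in #620-6 only and passed the filter through that array. The arrays of the #757 lines lay on slide 2 and had a higher detection floor than the other 3 on slide 1 (-4.50 and -4.23 against -6.23 to -5.91), and among the 11 probes of the 7 genes the signal nearest to its array's floor, Tet2 probe 2 in #757-1, lay 2.15 above it. Spots of one probe repeated on an array had a median SD of 0.0556 to 0.0754. All 7 detected ESC markers were well above background in every line, with a summed level of 6.33 to 7.61. Single markers varied more than that sum: Zfp42, a zinc finger protein of undifferentiated cells, read 7.0 in RF8, 6.79 in #620-2, 4.0 in #620-6, 6.55 in #757-1 and 3.87 in #757-2, and Nanog, a pluripotency transcription factor, had 2.53 as its lowest signal, in RF8, and 4.53 as its highest, in #620-6. The sex labels fitted Y-linked transcripts: Ddx3y, Eif2s3y, Kdm5d and Uty were well above background in RF8 and both #757 lines and in neither #620 line.

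**Figure D1:**
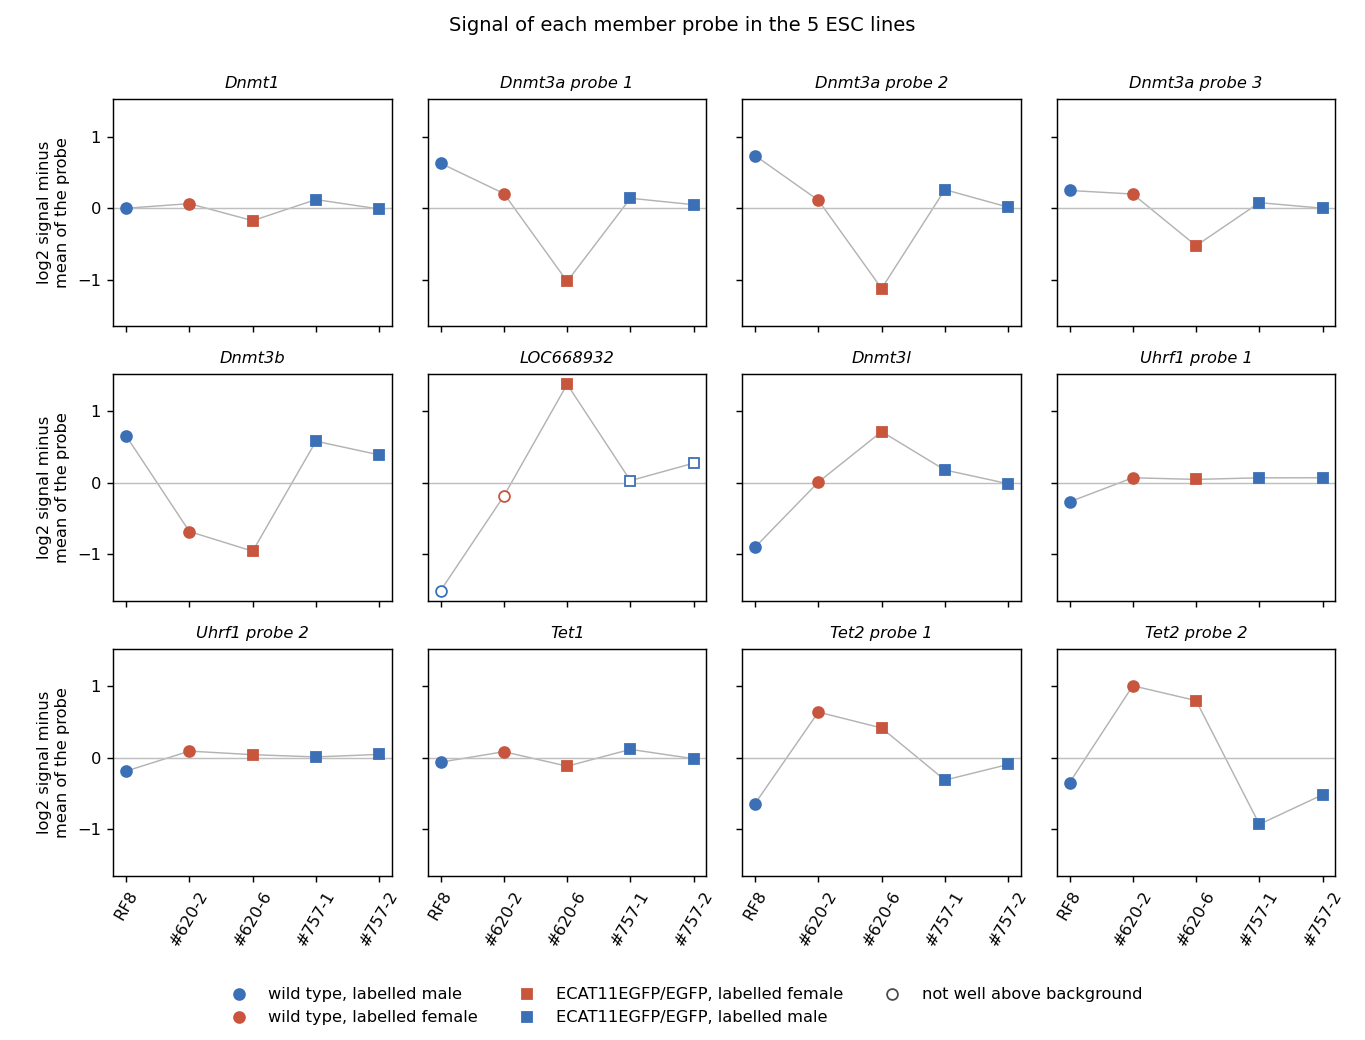
Signal of the 12 member probes in the 5 ESC lines, as log2 signal minus the mean of that probe over the lines (vertical axis) for each line (horizontal axis). Colour gives the sex label, shape the genotype, open symbols were not well above background, and the grey line only joins the symbols of a probe. Dnmt3b was lowest and Tet2 highest in both #620 lines, Dnmt3a was lowest in #620-6, Dnmt3l was lowest in RF8, and Dnmt1, Uhrf1 and Tet1 stayed within 0.34 over the lines.

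Among the de novo methyltransferases, Dnmt3b separated both #620 lines from the other 3. Its probe read 5.51 in RF8, 4.17 in #620-2, 3.89 in #620-6, 5.43 in #757-1 and 5.24 in #757-2. The highest #620 line thus lay 1.07 under the lowest other line, and the sex-label groups did not overlap. The female-labelled lines averaged 4.03 ± 0.19 (SD, n = 2) and the male-labelled lines 5.39 ± 0.14 (SD, n = 3). The log2 difference was -1.36 (SE 0.17, 95% interval -1.80 to -0.93), or 2.57-fold, and missed the threshold in limma with an adjusted p of 0.0715. With normexp background correction Dnmt3b passed it at -1.31 with a limma adjusted p of 0.0251, and with the stricter filter on dim probes at -1.36 with 0.0423. Dnmt3b did not pass under the other 10 alternatives. Over all probes the sex-label calls rose from 103 to 287 with normexp and to 338 with the stricter filter. Over the alternatives the Dnmt3b difference ranged from -1.50 to -1.23.

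The lower Dnmt3b signal was present in both genotypes. Among wild-type lines #620-2 lay 1.34 below RF8, 2.53-fold, and among ECAT11EGFP/EGFP lines #620-6 lay 1.44 below the mean of the #757 lines, 2.72-fold. Within slide 1, where both #620 lines were measured beside RF8, the difference was -1.48, with RF8 the only line on its side. The genotype means were 4.85 ± 0.84 (SD, n = 3) in ECAT11EGFP/EGFP and 4.84 ± 0.95 (SD, n = 2) in wild type for Dnmt3b, a log2 difference of 0.02 with a 95% interval of -1.71 to 1.75. That interval rests on few lines, and each genotype holds a #620 line that lay below the rest of its genotype, which adds to the spread. The LOC668932 probe read -8.06 in RF8, -6.74 in #620-2, -5.18 in #620-6, -6.52 in #757-1 and -6.28 in #757-2, and 4 of these 5 values were not well above background, so no pattern over the lines can be read from it. Some markers of differentiated and fibroblast cells, Sox17, Gata6, Col3a1 and Thy1 among them, were higher in both #620 lines than in the other 3 on their brightest probes. Others, T, Pax6 and Postn, were lower in both #620 lines, and Col1a1 and Col1a2 were highest in RF8. Of the 7 ESC markers, 6 were higher and 1 lower in the female-labelled lines, with a median difference of 0.36, and none was called. Nanog, Esrrb and Pou5f1 did not overlap between the sex labels, which held for 38.9% of all probes. The part of all these markers in the Dnmt3b difference was not tested.

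Dnmt3a, the other de novo enzyme, was lowest in #620-6 on all 3 of its probes. Probe 1 read 3.51 in RF8, 3.08 in #620-2, 1.85 in #620-6, 3.02 in #757-1 and 2.93 in #757-2. #620-6 stood alone, 1.07 below the next line, whereas the wild-type #620-2 lay among the other lines. Probe 2 read 3.21, 2.58, 1.35, 2.73 and 2.49 in the same order. Probe 3 read -1.58, -1.63, -2.35, -1.75 and -1.83, the same order of lines as probe 1 with a smaller range. Between the #620 lines, #620-6 was lower than #620-2 by 1.23 on probe 1, 1.24 on probe 2 and 0.72 on probe 3. RF8 was the highest line on each probe.

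No Dnmt3a probe passed the threshold in either comparison. For probe 1 the ECAT11EGFP/EGFP lines averaged 2.60 ± 0.65 (SD, n = 3) and the wild-type lines 3.29 ± 0.30 (SD, n = 2), a log2 difference of -0.70 with a 95% interval of -1.83 to 0.44 and a limma adjusted p of 0.825. The genotypes did not overlap on probes 1 and 3 and overlapped on probe 2. Within the female label the genotype difference of probe 1 was -1.23, and within the male label it was -0.54, each resting on 1 wild-type line. Between the sex labels probe 1 differed by -0.68 with an interval of -1.81 to 0.45 and a limma adjusted p of 0.469. These values rest on #620-6: without it the probe 1 differences were -0.32 between the genotypes and -0.07 between the sex labels. With slide as a block they came from slide 1 alone, because both #757 lines share slide 2, their genotype and their sex label. They were then -1.44, for #620-6 alone against RF8 and #620-2, and -1.04, for both #620 lines against RF8 alone.

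Dnmt3l, the catalytically inactive cofactor, ran the other way at both ends. Its probe read 5.12 in RF8, 6.03 in #620-2, 6.74 in #620-6, 6.20 in #757-1 and 6.01 in #757-2. The line with the most Dnmt3a signal, RF8, thus had the least Dnmt3l signal, and #620-6, with the least Dnmt3a, had the most. RF8 lay 0.89 under the next line, while #620-2 and both #757 lines stayed within 0.19 of each other. The genotype difference was 0.74 (95% interval -0.26 to 1.74, limma adjusted p 0.769) and the sex-label difference was 0.61 (95% interval -0.50 to 1.72, limma adjusted p 0.504). Both intervals include 0 and a 3-fold difference, and without RF8 the genotype difference was 0.29 and the sex-label difference 0.28. The sex-label difference was 0.25 without #620-6 and 1.26 with slide as a block, the ends of its range over the alternatives. The slide-block value sets both #620 lines against RF8 alone. The extremes of Dnmt3l, RF8 and #620-6, were also the extremes of Nanog, and Zfp42 was low in #620-6 and #757-2. The part of these marker differences in the Dnmt3l signal was not tested.

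The maintenance genes were nearly level. Dnmt1 read 2.91 in RF8, 2.97 in #620-2, 2.74 in #620-6, 3.03 in #757-1 and 2.90 in #757-2, a range of 0.30. Uhrf1 probe 1 read 4.25, 4.59, 4.56, 4.59 and 4.59 in the same order, and probe 2 read 3.49, 3.76, 3.71, 3.68 and 3.72. RF8 was the lowest line on both Uhrf1 probes, and the other 4 lines lay within 0.04 of each other on probe 1. For Dnmt1 the genotype difference was -0.05 with a 95% interval of -0.48 to 0.38, and for Uhrf1 probe 1 it was 0.16 with an interval of -0.29 to 0.61, so a 2-fold difference lies outside both intervals. The sex-label intervals were -0.47 to 0.29 for Dnmt1 and -0.34 to 0.54 for Uhrf1 probe 1. As background, both genes are most active in dividing cells. The 12 proliferation markers were well above background in every line, and their summed level stayed between 8.95 and 9.12.

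Of the oxidases, Tet1 read 0.94 in RF8, 1.09 in #620-2, 0.88 in #620-6, 1.12 in #757-1 and 0.99 in #757-2. Its range of 0.24 was reached or exceeded by 90.8% of the 20617 probes that every array detected above background. The genotype difference of Tet1 was -0.02 with a 95% interval of -0.44 to 0.40, and the sex-label difference was -0.03 with an interval of -0.41 to 0.35.

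Tet2 was highest in both #620 lines, the reverse of Dnmt3b. Probe 1 read -1.45 in RF8, -0.17 in #620-2, -0.39 in #620-6, -1.12 in #757-1 and -0.90 in #757-2. Probe 2 read -1.76, -0.41, -0.61, -2.34 and -1.93 in the same order. On both probes the female-labelled lines lay above every male-labelled line. For probe 1 they averaged -0.28 ± 0.16 (SD, n = 2) against -1.15 ± 0.28 (SD, n = 3), a log2 difference of 0.88 (SE 0.21, 95% interval 0.31 to 1.44, limma adjusted p 0.159). For probe 2 the difference was 1.50 (SE 0.22, 95% interval 0.91 to 2.09), or 2.83-fold, with a limma adjusted p of 0.0874. With normexp background correction probe 2 passed the threshold, at 1.25 with a limma adjusted p of 0.0294, and probe 1 did not. That setting raised the calls over all probes from 103 to 287. Under the other alternatives neither Tet2 probe passed.

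The Tet2 difference was seen in both genotypes. #620-2 exceeded RF8 by 1.28 on probe 1 and 1.36 on probe 2, and #620-6 exceeded the mean of the #757 lines by 0.62 and 1.52. The 2 probes disagreed on the male-labelled lines, since RF8 was the lowest line on probe 1 and lay above both #757 lines on probe 2. The genotype difference was 0.00 on probe 1 and -0.54 on probe 2, with 95% intervals of -1.22 to 1.23 and -2.36 to 1.27. As for Dnmt3b, the part of the differentiated, fibroblast and ESC markers in the sex-label difference was not tested.

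**Figure D2:**
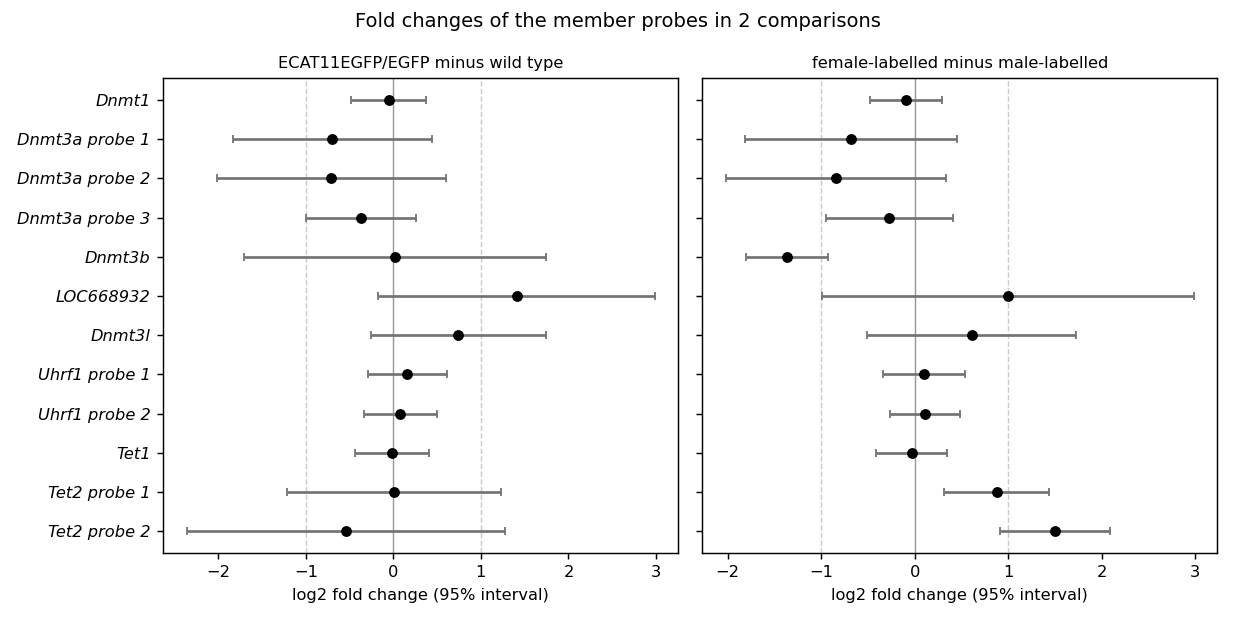
Log2 fold change (horizontal axis) of the 12 member probes with its 95% interval from limma, for ECAT11EGFP/EGFP minus wild type on the left and female-labelled minus male-labelled on the right. Dashed lines mark a 2-fold difference. In the genotype comparison every interval includes 0, and in the sex-label comparison those of Dnmt3b (-1.80 to -0.93) and both Tet2 probes (0.31 to 1.44 and 0.91 to 2.09) do not.

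A call needed a limma adjusted p under 0.05 over all probes kept and a difference of more than 2-fold. Between the genotypes 0 of the 12 member probes were called, where 1 of 28972 probes tested was called (0.00345%), and 0 member probes had an unadjusted p under 0.05, against 7.61% of all probes, or 3.33% with a difference over 2-fold as well. The groups did not overlap for 2 of the 11 probes of the 7 genes, Dnmt3a probes 1 and 3, against 23.6% of all probes. The LOC668932 probe is not counted there because only 1 array read it above background. Between the sex labels 0 member probes were called, where 103 of 28971 were (0.356%). At an unadjusted p under 0.05 with a difference over 2-fold stood 2 of 12 member probes, Dnmt3b and Tet2 probe 2, against 7.33% of all probes. The groups did not overlap for 3 of the 11, Dnmt3b and both Tet2 probes, against 38.9% of all probes. The median absolute difference between the sex labels was 0.65 over the 12 member probes and 0.29 over all probes, and between the genotypes it was 0.27 and 0.22. These member medians include LOC668932 and count some genes more than once. The middle sex-label values were those of Dnmt3l (0.61) and Dnmt3a probe 1 (-0.68), whose intervals include 0. No member's genotype difference was shown to depend on the sex label: the smallest adjusted p of the interaction in limma among members was 0.526, and 0 of 28915 probes passed at 0.05, with 3052 at an unadjusted p under 0.05.

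Line by line, where each side is 1 array and no test can be made, the members parted most between RF8 and #620-6. There 6 of 11 member probes, of Dnmt3a, Dnmt3b, Dnmt3l and Tet2, differed by more than 2-fold, against 14.2% of all probes well above background on both arrays. Dnmt3a probe 2 was the furthest, at -1.86. Between the wild-type lines RF8 and #620-2, 3 member probes did, of Dnmt3b and Tet2, against 10.3% of all probes. Between #620-2 and #620-6, which differ in genotype within one series, 2 did, both of Dnmt3a, against 7.09%. From the #757 lines, #620-2 differed by more than 2-fold on 2 member probes each, Dnmt3b and Tet2 probe 2, against 9.47% of all probes for #757-1 and 8.8% for #757-2. #620-6 differed from them on 4 each, which added Dnmt3a probes 1 and 2, against 11.0% for #757-1 and 8.15% for #757-2. RF8 differed from #757-1 on 1, Dnmt3l, against 6.4%, and from #757-2 on 0, against 5.93%. Between #757-1 and #757-2 the number was 0, against 1.83%.

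Fibroblast transcripts, which could come from feeder cells, also varied between the lines. The 7 fibroblast markers had a summed level of 3.96 in RF8, 3.17 in #620-2, 3.05 in #620-6, 1.16 in #757-1 and 2.15 in #757-2, and 5 to 7 of them were well above background in each line. The female-labelled range of 3.05 to 3.17 thus lay inside the male-labelled range of 1.16 to 3.96, while the wild-type lines (3.17 to 3.96) lay above the ECAT11EGFP/EGFP lines (1.16 to 3.05). Gene by gene the sex labels parted more than the sum did: 5 of the 7 genes were higher in the female-labelled lines, with a median difference of 1.22, none was called, and 2 were over 2-fold higher at an unadjusted p under 0.05 in limma. These were Col3a1, a fibrillar collagen, and Thy1, a surface glycoprotein of fibroblasts. Col3a1 read -2.89 in RF8, -1.10 in #620-2, -1.14 in #620-6, -4.34 in #757-1 and -3.93 in #757-2, a difference of 2.60, and Thy1 read 0.52, 1.71, 1.70, -0.50 and 0.06 in the same order, a difference of 1.68. On both the #620 lines lay above the other 3, and so they did on the dimmer Lum. The remaining fibroblast markers did not follow this. Col1a1 read 2.97 in RF8 against 0.80 in #620-2 and 0.56 in #620-6, and Col1a2 read 2.51 against 1.62 and 1.54. Pdgfrb was highest in RF8, and Postn was lower in both #620 lines than in the others. In array data fewer cells of a type and less RNA per cell cannot be told apart. Between the genotypes 6 of the 7 were lower and 1 higher in the ECAT11EGFP/EGFP lines, with a median difference of -1.14, and none was called. The part of fibroblast RNA in the member signals was not tested.

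Some markers of differentiated cells also differed between the sex labels. Of the 8 listed genes 3 were well above background on all arrays, and RF8 and #620-2 detected 8 of them, #620-6 detected 7, #757-1 detected 3 and #757-2 detected 4. These counts cannot be compared between slides, since the #757 arrays had the higher detection floor. Sox1 read -4.68 in #757-1, not well above background there, and -5.13 in RF8, well above background. Their summed signal, on the log2 scale, came to 0.45 in RF8, 0.11 in #620-2, -0.28 in #620-6, 0.20 in #757-1 and -0.49 in #757-2, so the sum did not separate the sex labels. In the female-labelled lines 6 of the 8 were higher and 2 lower, with a median difference of 0.30, and at an unadjusted p under 0.05 in limma 2 were higher and 2 lower. Sox17, an endoderm transcription factor, was the gene called: its brightest probe read -4.99 in RF8, -2.64 in #620-2, -3.00 in #620-6, -4.95 in #757-1 and -4.93 in #757-2, a difference of 2.13 (limma adjusted p 0.0361), with neither #757 array detecting it above background. Its other probe differed by 1.94 (limma adjusted p 0.0586). Gata6, another endoderm factor, differed by 1.6 (limma adjusted p 0.146), and Pax6, a neural and eye factor, by -1.32 (limma adjusted p 0.230). Between the genotypes all 8 were lower in the ECAT11EGFP/EGFP lines, with a median difference of -0.41, none of them at an unadjusted p under 0.05 in limma. The part of differentiated cells in the member signals was not tested.

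Xist, the RNA that coats the inactive X chromosome, was well above background in both #620 lines on 3 of its 4 probes and in none of the other lines on those probes. The fourth was well above background in RF8 and #620-6.

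The genes whose lines patterned most like a member were sought among all probes that every array detected above background, by the root mean square difference of signals centred on their mean over the 5 lines. This was done for the brightest probes of the members with the widest range, Dnmt3a and Dnmt3l. Nearest to Dnmt3a came Fgd5 at 0.087, Lrfn4 at 0.089 and Fam171b at 0.090. Nearest to Dnmt3l came Stk3 at 0.045, Usp29 at 0.051 and Ro60 at 0.078. Stk3 and Usp29 were dim, at -3.90 and -3.64 in #757-2, near the detection floor of that array (-4.23). With 5 lines and 20616 probes compared, close matches are a description only. Within the members, Dnmt3b lay 0.47 from Dnmt3a and 1.10 from Dnmt3l, and Tet2 lay 0.91 from Dnmt3a and 0.40 from Dnmt3l. The nearly level Dnmt1, Tet1 and Uhrf1 lay 0.48, 0.51 and 0.63 from Dnmt3a, and 0.57, 0.53 and 0.42 from Dnmt3l. The values of 0.47 and 0.40 are thus hardly nearer than a nearly level gene gives.

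**Figure D3:**
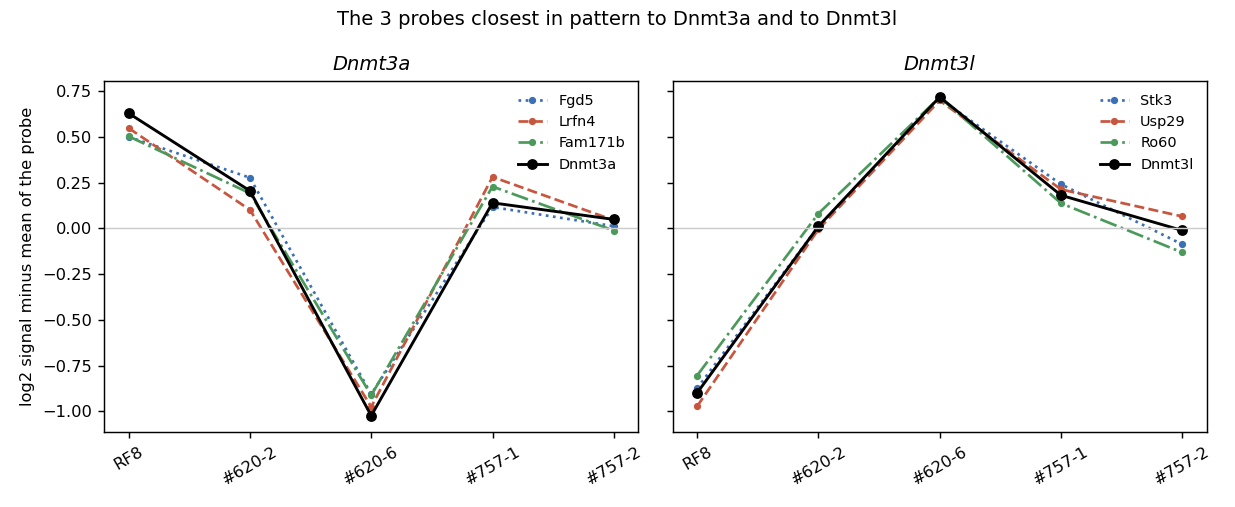
Log2 signal minus the mean of each probe (vertical axis) in the 5 lines (horizontal axis) for Dnmt3a and Dnmt3l in black with the 3 genes nearest in pattern. Dnmt3a and its neighbours have their lowest value in #620-6, and Dnmt3l and its neighbours have their lowest value in RF8 and their highest in #620-6.

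Around the members, 47 genes of the DNA methylation pathway were listed, 45 of them with a kept probe. Prdm14 had no probe and Cxxc4 had none that was kept. No gene of the list was called in either comparison. Their median log2 difference was 0.04 between the genotypes, beside -0.02 over all probes, and -0.01 between the sex labels, beside -0.01 over all probes. At an unadjusted p under 0.05 in limma, 3 were higher and 2 lower in ECAT11EGFP/EGFP lines, and 5 were higher and 4 lower in female-labelled lines, out of 45, where 7.61% and 18.0% of all probes had such a p.

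Among the relatives, Tet3, the remaining TET oxidase, read -1.26 in RF8, -1.79 in #620-2, -1.78 in #620-6, -1.30 in #757-1 and -1.58 in #757-2, a sex-label difference of -0.41 (limma adjusted p 0.285). It thus stood on the side opposite to Tet2 in the #620 lines. Uhrf2, the paralogue of Uhrf1, differed by 0.05 between the sex labels and by -0.14 between the genotypes. Of the 7 maintenance partners, Hdac1, a histone deacetylase that binds Dnmt1, was the furthest from 0, at 4.85 in #620-2 and 4.81 in #620-6 against 5.43 to 5.51 in the male-labelled lines, a difference of -0.64 (limma adjusted p 0.115). Ehmt1, a histone H3 lysine methyltransferase, differed by -0.41 between the sex labels (limma adjusted p 0.275).

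Regulators of de novo and imprint methylation held the largest genotype difference of the list. Dppa3, which protects maternal methylation in the zygote and restrains Uhrf1, read 3.44 in RF8, 2.02 in #620-2, 3.70 in #620-6, 4.79 in #757-1 and 4.73 in #757-2. The genotypes did not overlap, and the difference of 1.68 had a limma adjusted p of 0.609. Zfp57, a zinc finger protein that maintains imprints, read -0.08 in #620-2 and -0.31 in #620-6 against -1.22 to -0.71 in the male-labelled lines, a difference of 0.72 (limma adjusted p 0.204).

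Among readers of methylated CpG stood the largest sex-label difference of the list. Zbtb4, a zinc finger protein that binds methylated CpG, read -2.07 in RF8, -0.81 in #620-2, -1.10 in #620-6, -2.79 in #757-1 and -2.62 in #757-2 on its brightest probe. Both #620 lines exceeded the other 3 by a mean of 1.54 on that probe and 1.47 on the other, with limma adjusted p values of 0.105 and 0.096.

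Of the genes for removal of oxidised or deaminated bases, Gadd45b, a stress-induced adaptor linked to demethylation, differed between the genotypes by 0.92 on its brightest probe (limma adjusted p 0.514) and by 1.05 on the other (limma adjusted p 0.409). Its signal was 0.89 in RF8 and 0.36 in #620-2 against 1.38 to 1.80 in the ECAT11EGFP/EGFP lines. Among TET partners and enzymes that make or use their co-substrate, Idh2, which makes 2-oxoglutarate, differed by 0.60 between the sex labels (limma adjusted p 0.199), and Cxxc5 by -0.37 (limma adjusted p 0.299). In methyl donor supply, Ahcy, which clears the by-product that inhibits methyltransferases, differed by -0.60 between the genotypes (limma adjusted p 0.494), and Mtr, methionine synthase, by 0.51 between the sex labels (limma adjusted p 0.281).

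**Figure D4:**
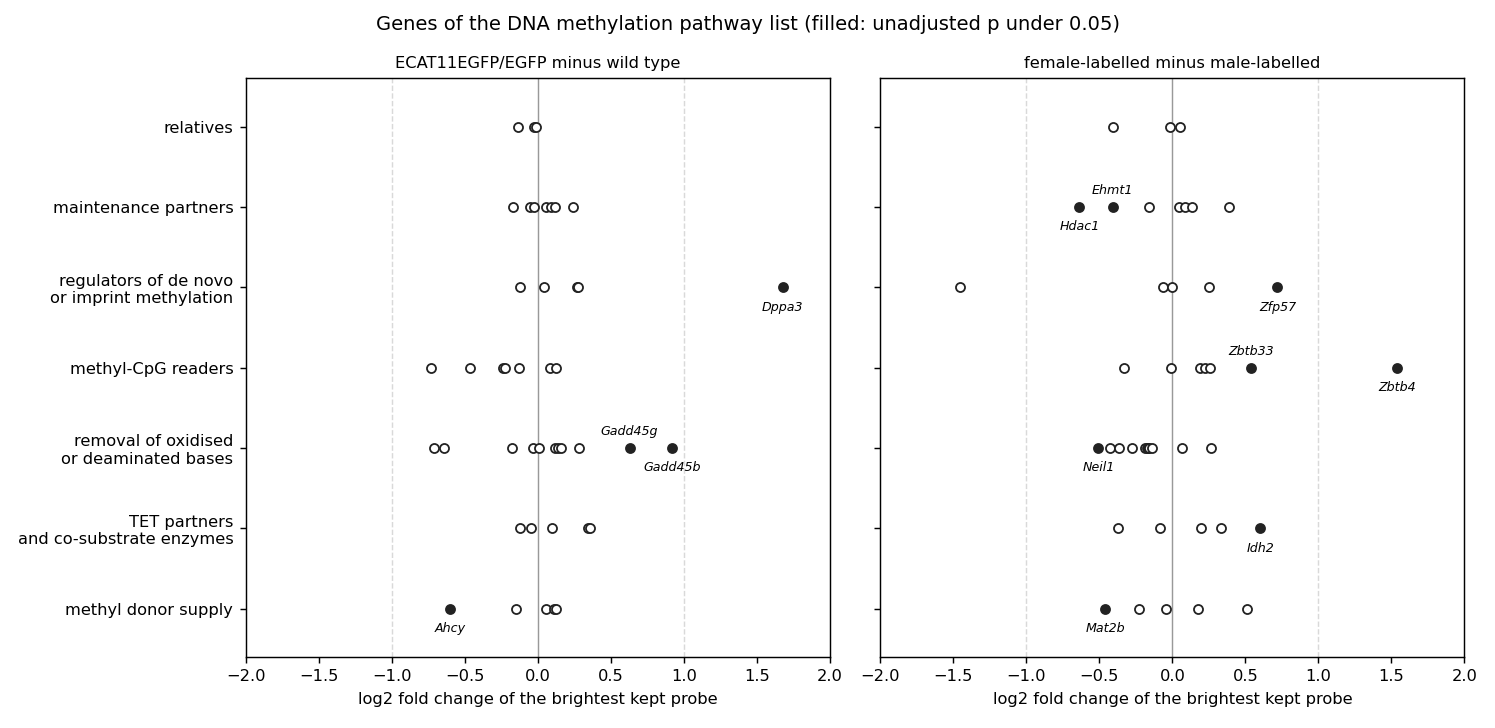
Log2 fold change (horizontal axis) of the brightest kept probe of 43 of the 45 pathway genes by role (vertical axis), for ECAT11EGFP/EGFP minus wild type on the left and female-labelled minus male-labelled on the right. Filled symbols had an unadjusted p under 0.05 in limma, dashed lines mark a 2-fold difference, and no gene was called. Dppa3 lies furthest out at 1.68 on the left, and Zbtb4 at 1.54 on the right.

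The promoters of Dnmt3b and Tet2, the genes that parted the #620 lines from the others in opposite directions, are shown with their CpG, the dinucleotide these enzymes act on. The 250 bases before each start were read from the RefSeq promoter table (GRCm38.p6), which matched all 7 genes, and capitals mark CpG. The Dnmt3b stretch is chr2:153649199-153649448 on the plus strand and the Tet2 stretch is chr3:133544391-133544640 on the minus strand.
Dnmt3b: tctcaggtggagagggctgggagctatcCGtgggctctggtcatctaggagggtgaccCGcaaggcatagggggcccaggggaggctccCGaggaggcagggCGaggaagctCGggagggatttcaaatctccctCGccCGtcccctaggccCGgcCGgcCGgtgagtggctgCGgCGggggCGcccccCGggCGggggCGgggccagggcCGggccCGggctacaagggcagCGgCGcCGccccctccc
Tet2: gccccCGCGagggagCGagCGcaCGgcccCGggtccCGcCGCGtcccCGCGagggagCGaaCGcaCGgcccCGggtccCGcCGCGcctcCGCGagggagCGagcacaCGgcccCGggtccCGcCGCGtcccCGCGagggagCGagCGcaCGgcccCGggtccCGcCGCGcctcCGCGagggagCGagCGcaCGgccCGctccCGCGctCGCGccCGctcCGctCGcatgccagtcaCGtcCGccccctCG

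Tet2 holds 51 CpG in this stretch, a number reached by 0.067% of the 32851 promoters in the table, and Dnmt3b holds 21, a number reached by 16.3%. The median promoter holds 6. Dnmt3l, by contrast, has 3 to 5 at its 3 listed starts. The upstream Dnmt3a starts have 38 and 40, and its downstream start has 15. The CpG-richest starts of Dnmt1 and Uhrf1, whose signals were nearly level, have 26 and 30, more than Dnmt3b. Their other starts have fewer than Dnmt3b, 2 and 7 for Dnmt1 and 10 for Uhrf1. Tet1, nearly level too, has 15 at its only listed start, also fewer than Dnmt3b. Whether the number of CpG has a part in the signals was not tested. The E2F word TTTCGCGC, searched on both strands, occurs once at 1 of 3 Dnmt1 starts and once at 1 of 2 Uhrf1 starts, and at none of the other members' starts. It occurs in 0.256% of all promoters. A match is a description of the letters and not evidence of binding.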

How the data were processed

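Total RNA of the 5 ESC lines was labelled with Cy3 and hybridised to one-colour Agilent arrays. The scans were extracted by the authors with Agilent Feature Extraction 9.5.3.1. Their deposited files give every spot a background-corrected intensity and flags, with no normalisation between arrays. A deposited matrix of log2 values, made in GeneSpring GX, served here only as an alternative. From the intensities, control spots and flagged spots were dropped, values were scaled to the 75th percentile of their array and log2-transformed, and repeated spots were averaged. A probe was kept if any array had it flagged Present. The number of arrays limits the precision.

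Fits used limma (version 3.58.1, R 4.3.3) over all kept probes, with Benjamini-Hochberg adjustment. The genotype comparison set 3 lines against 2, and the sex-label comparison 2 against 3. The code was tested on simulated data. Probes were renamed through the RefSeq gene table (GRCm38.p6). Named were all member probes and, of each role in the pathway list, the genes with the largest difference on their brightest probe. Of the genes this rule chose, 2 are not reported here. The members and lists were chosen with earlier results of these data known. Figures were drawn with matplotlib 3.10.9. Alternatives were normexp background correction (offset 50), quantile normalisation, the deposited table, no filter or a stricter filter on dim probes, slide as a block, the other label as a covariate, leaving out each line, other probes of a gene, and the methods' t-test for the genotypes. Unadjusted counts of members were added after the data were seen. The deleted gene has no probe on the array that is named for it.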

Additional observations from a re-analysis of the deposited data

How the results depend on the processing

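The settings other than the main one gave 176 fold changes of the 7 members, of which 157 kept their direction and 19 reversed. With slide as a block each difference comes from slide 1, where #620-6 is the only ECAT11EGFP/EGFP line and RF8 the only male-labelled line. Otherwise, why values reversed was not tested. Values are log2 differences. The sex-label differences of Dnmt3b and Tet2 reversed under none of the settings run. In the genotype comparison Dnmt3b turned to -0.036 (quantile), -0.94 (slide block) and -0.215 (sex label in the model), and Tet2 to -0.0028 under normexp and -0.54 on its other probe. In the sex-label comparison Tet1 turned to 0.045 (slide block). Leaving out each line in turn gave genotype differences of -0.125 to 0.023 for Dnmt1, -0.65 to 0.69 for Dnmt3b, -0.0077 to 0.329 for Uhrf1, -0.089 to 0.057 for Tet1 and -0.64 to 0.64 for Tet2, and sex-label differences of -0.211 to 0.028 for Dnmt1, -0.011 to 0.157 for Uhrf1 and -0.132 to 0.071 for Tet1. The median of the pathway list moved, between the genotypes, to 0.0082 (quantile), 0.013 (sex label in the model) and -0.058 (slide block), and ranged from -0.019 to 0.041 when lines were left out. Between the sex labels it moved to 0.021 (quantile) and ranged from -0.021 to 0.048 when lines were left out.

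Over all probes the single genotype call became 0 in 6 settings (normexp, quantile, unfiltered, slide block, sex label in the model, the methods' t-test) and 0 when any line was left out, with 1215 to 3888 probes at an unadjusted p under 0.05, and 3 with the stricter filter. The 103 sex-label calls became 287 under normexp, 210 after quantile scaling, 27 unfiltered, 338 under the stricter filter and 0 with genotype in the model (6404 at an unadjusted p under 0.05). They were 88 without RF8 and 0 without any one of #620-2, #620-6, #757-1 or #757-2 (3544 to 4348 at an unadjusted p under 0.05). Of the member probes, 2 were called between the sex labels with normexp (Dnmt3b and Tet2 probe 2) and 1 with the stricter filter (Dnmt3b). A comparison that left 1 line in a group takes that line to vary like the others. No paired analysis was possible because the lines share too few replicate numbers across groups and those numbers pair nothing.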
